A study of Mus musculus with 12 samples.

Results

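The comparison described here set 3 arrays labelled shMsl1_A, from male mouse embryonic stem cells (mESCs) given a short hairpin RNA (shRNA) against Msl1, against 3 arrays labelled shcontrol_A, from the same line given a non-target shRNA. The arrays were taken by their titles, and they make up 6 of the 12 arrays of the series. The other 6 are shNsl1_B, transduced with an shRNA that targets Kansl1, named Nsl1 in the study, and shcontrol_B, the non-target controls of that second experiment, with 3 arrays each. All cells were of the line E14.wt (strain 129P2/OlaHsd, passages 26 to 29), had been grown with serum and leukaemia inhibitory factor on CD1 feeder cells, and were then kept for a passage without feeders. The shRNAs came from lentiviral pLKO.1 puro vectors, with a single clone against Msl1. Replicates are described as biological in the methods, but the titles do not state that they were grown and infected apart, and p-values here reflect only how far these arrays differ. The values are log2 signals of 41345 probe sets, a probe set being the group of probes that reads out a transcript. A log2 difference is the mean of the shMsl1_A arrays minus the mean of the shcontrol_A arrays, with its standard error (SE). Values of 3 arrays are given in the order of replicates 1, 2 and 3.

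Msl1 is the scaffold protein of the male-specific lethal (MSL) complex, which also holds Msl2, a ubiquitin ligase, Msl3, a chromodomain protein, and Mof, the histone acetyltransferase made from the Kat8 gene. The complex acetylates histone H4 at lysine 16, a mark of open chromatin. In Drosophila it is known for raising transcription from the male X chromosome. Mof is also the enzyme of a second assembly, the NSL (non-specific lethal) complex, known to bind promoters.

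The targeted gene went against the label on 2 of the 6 arrays. Msl1 (probe set 17256162, chromosome 11) had signals of 6.77, 9.18 and 7.64 on the arrays labelled shMsl1_A, against 8.56, 6.90 and 8.62 on those labelled shcontrol_A. The array labelled shMsl1_A 2 thus carried the highest Msl1 signal of the 6 and the array labelled shcontrol_A 2 the second lowest. In the second experiment, where Msl1 was not targeted, the signals were 9.17, 9.02 and 9.004 for shNsl1_B and 8.84, 8.64 and 8.79 for shcontrol_B. The study itself lists the signals of both of these contrary arrays under the other group. Groups are kept as titled throughout, and every direction below rests on those titles. As labelled, Msl1 averaged 7.86 ± 1.22 on the shMsl1_A arrays and 8.03 ± 0.98 on the shcontrol_A arrays (SD, n = 3 each), a log2 difference of -0.16 ± 0.74 (SE), for which limma gave an adjusted p of 0.953. The groups overlapped, and a two-sided exact permutation test returned p = 0.9, where 3 arrays against 3 cannot go below 0.1. Without both replicate 2 arrays, Msl1 had a log2 difference of -1.39, which limma did not call. Those are the arrays on which Msl1 went against the label, so this larger difference follows from leaving them out.

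The primers with which the study followed Msl1 RNA by RT-qPCR are shown because the question of the labels turns on this transcript.
Msl1 forward primer: tctgctgcaattggacctcatc
Msl1 reverse primer: gctgcatccgcctttccata

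The other subunits of the MSL complex had log2 differences between -0.07 and 0.31. Msl2 had signals of 10.21, 10.33 and 10.10 on the shMsl1_A arrays and 10.14, 10.35 and 10.26 on the shcontrol_A arrays. Kat8 had signals of 9.55, 9.45 and 9.47, against 9.56, 9.51 and 9.61 on the shcontrol_A arrays. The log2 differences were -0.04 ± 0.10 for Msl2 and -0.07 ± 0.08 for Kat8, within the spread of the arrays. Msl3, which is X-linked, had signals of 8.15, 9.03 and 8.74, against 8.29, 8.18 and 8.52 on the shcontrol_A arrays, a log2 difference of 0.31 ± 0.24 that came from the arrays labelled shMsl1_A 2 and 3. As for Msl1, the signal was highest on shMsl1_A 2, and the Msl3 difference was 0.04 without both replicate 2 arrays. Of the 8 NSL members measured, 3 lay above and 5 below the controls, between -0.30 ± 0.19 for Mcrs1 and 0.39 ± 0.14 for Kansl3. None of these genes passed limma.

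**Figure D1:**
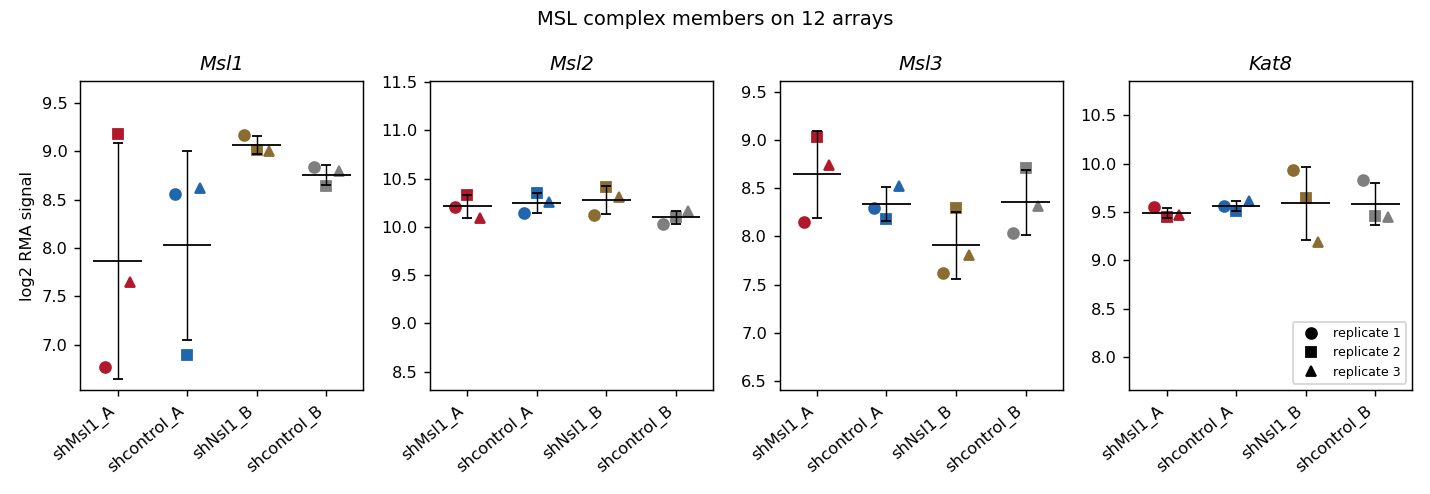
Log2 RMA signal of Msl1, Msl2, Msl3 and Kat8 on each of the 12 arrays, by group, with the replicate number as the symbol, the mean as a long bar and the SD as the error bar (n = 3). Msl1 was at 9.18 on shMsl1_A 2 and at 6.90 on shcontrol_A 2, whereas Msl2 and Kat8 show no such exchange between the replicate 2 arrays.

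Over the whole array, limma called 0 of 41345 probe sets (0%) at an adjusted p under 0.05, with 0.622 as the smallest adjusted p. An unadjusted p under 0.05 was found for 1956 probe sets with a higher level (4.73%) and 1207 with a lower level (2.92%). Fold change rank ordering statistics (FCROS), the rank method of the study, which is not corrected for multiple testing, called 688 higher (1.66%) and 559 lower (1.35%), 1247 in all (3.02%). All 3 shMsl1_A arrays lay above all 3 shcontrol_A arrays for 2639 probe sets (6.38%) and below them for 2391 (5.78%). These last shares are the background against which the counts of genes without overlap below are read. The array medians lay between 5.58 and 5.69, and the correlation between any 2 of the 6 arrays lay between 0.966 and 0.995.

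A single array decided the number of calls. Without the array labelled shMsl1_A 1, limma called 4281 probe sets higher (10.4%) and 2490 lower (6.02%), 6771 in all, although Msl1 itself then had a positive log2 difference of 0.39. With any other array left out, or without both replicate 2 arrays, 0 were called, and without both there were 1014 probe sets with an unadjusted p under 0.05 (2.45%). The mean SD between arrays was 0.245 for shMsl1_A and 0.16 for shcontrol_A on the log2 scale.

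The array labelled shMsl1_A 1 resembled the controls more than its own group. Across probe sets, its deviations from the mean of the 6 arrays correlated at -0.75 and -0.71 with those of shMsl1_A 2 and 3, and at 0.39, 0.37 and 0.15 with those of shcontrol_A 1, 2 and 3. The arrays labelled shMsl1_A 2 and 3 correlated at 0.76 with each other, although their Msl1 signals were 9.18 and 7.64. The deviations sum to 0 over the 6 arrays, so these values describe which arrays stand together and are no test. The median absolute log2 difference was 0.214 between shMsl1_A 1 and the mean of shMsl1_A 2 and 3, and 0.118 between shMsl1_A 1 and the shcontrol_A mean.

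**Figure D2:**
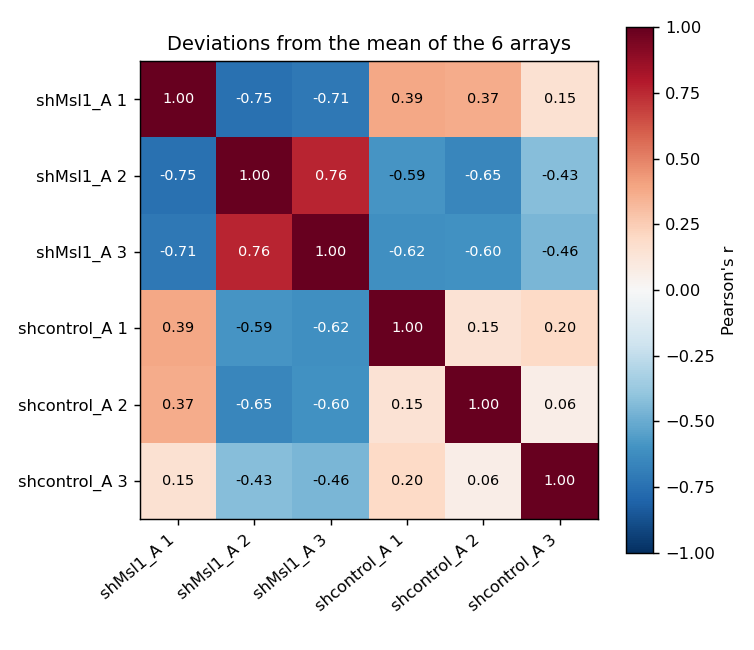
Pearson correlation, across 41345 probe sets, of each array's deviation from the mean of the 6 arrays (both axes list the arrays, red is positive, blue is negative). The arrays labelled shMsl1_A 2 and 3 deviated together (0.76), and shMsl1_A 1 was nearer to the 3 controls (0.15 to 0.39).

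The largest differences without overlap between the groups were read for 10 genes in each direction. Above the controls were Bmp2, a secreted growth factor of the BMP family (2.03 ± 0.79), Fhl2, a LIM-domain cofactor (1.85 ± 0.65), Cxcl10, an interferon-induced chemokine (1.68 ± 0.47), Emp2, a tetraspan membrane protein (1.66 ± 0.61), Cryab, a small heat shock protein (1.61 ± 0.59), and Acta1, skeletal muscle actin (1.60 ± 0.54). The others were Prnd, Slc25a24, a mitochondrial carrier, Dnah8, an axonemal dynein heavy chain, and Serpinh1, a collagen chaperone, from 1.38 to 1.53. Below the controls were H2bc1, a histone H2B gene (-2.55 ± 1.07), Rxrg, a retinoid X receptor (-1.20 ± 0.42), Gbx2, a homeobox factor of naive mESCs (-1.18 ± 0.43), Mnd1, of meiotic recombination (-1.16 ± 0.29), Pdzd4 (-1.09 ± 0.40), Epas1, a hypoxia-inducible factor (-1.08 ± 0.30), and Otx2, a homeobox factor of the primed epiblast (-1.04 ± 0.41). Prkar2b, a regulatory subunit of protein kinase A, H2ac21, a histone H2A gene, and Ccno, a cyclin, followed from -1.01 to -0.92. Each of the 20 had an adjusted p of 0.622 by limma.

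Bmp2 had signals of 5.53, 8.78 and 7.99 on the shMsl1_A arrays, against 5.47, 5.37 and 5.38 on the shcontrol_A arrays. H2bc1 had signals of 9.12, 4.61 and 6.31, against 9.15, 9.40 and 9.13 on the shcontrol_A arrays. Cxcl10 had signals of 6.89, 8.66 and 8.37, against 6.13, 6.60 and 6.16 on the shcontrol_A arrays. The groups did not overlap for these genes, but shMsl1_A 1 stood nearer to the controls than shMsl1_A 2 and 3 did. In all 20 genes shMsl1_A 1 was nearer to the control mean than to the mean of shMsl1_A 2 and 3, with a gap to the nearest control of 0.022 to 0.295 for the 10 above and 0.0040 to 0.294 for the 10 below. Epas1, at 7.52, 7.03 and 6.68 against 8.36, 7.65 and 8.48 on the shcontrol_A arrays, was close to midway, since its shMsl1_A 1 value lay 0.64 below the control mean and nearer to shMsl1_A 2 than to that mean. Over all 5030 probe sets without overlap, shMsl1_A 1 was nearer to the controls in 2004 (39.8%). Enpp3, an ectonucleotidase, had a log2 difference of -1.41 ± 0.53, with signals of 11.09, 9.21 and 9.15 against 11.36, 11.04 and 11.26, so that shMsl1_A 1 lay among the controls.

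**Figure D3:**
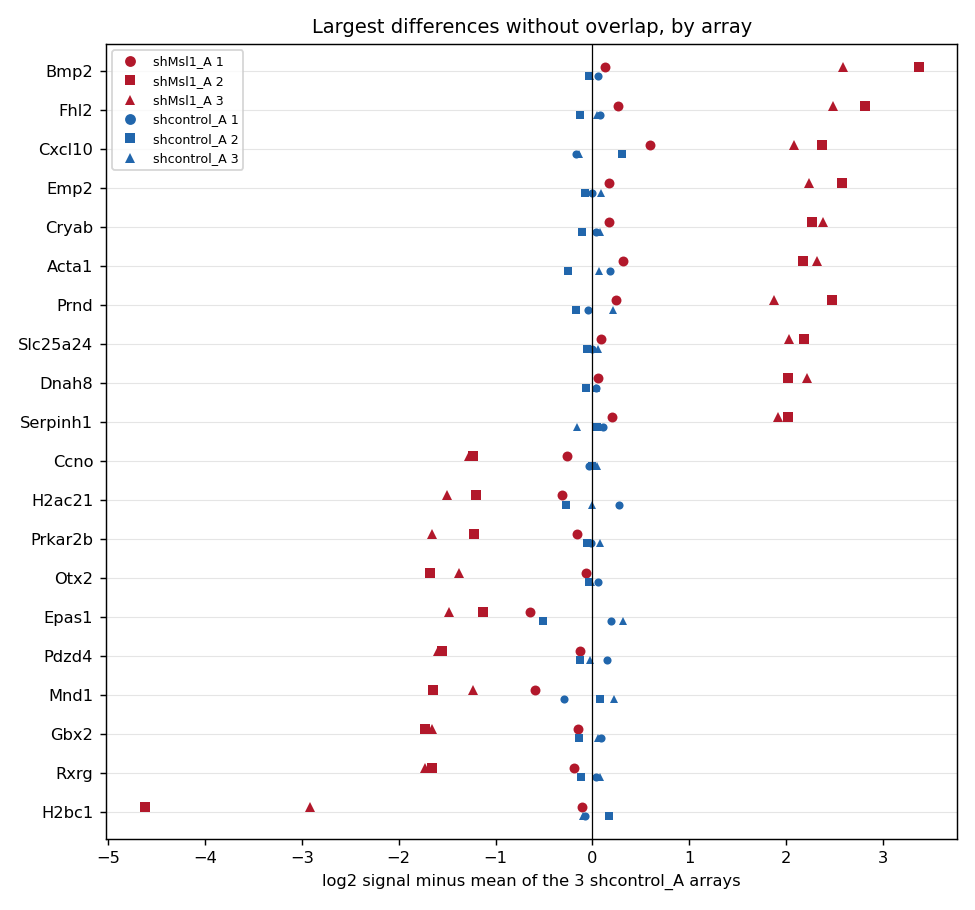
Log2 signal of the 20 genes with the largest differences without overlap, as the distance from the mean of the 3 shcontrol_A arrays (horizontal axis), with the 3 shMsl1_A arrays in red and the 3 shcontrol_A arrays in blue. The red circle (shMsl1_A 1) lies nearer to the control mean than to the mean of shMsl1_A 2 and 3 in all 20 genes, though only just in Epas1, and the mean of shMsl1_A 2 and 3 differs from the control mean by 1.97 to 2.98 or by -3.77 to -1.25.

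The same genes divided the control arrays of the second experiment, which were given no shRNA against Msl1. In all 10 of the genes above, the arrays labelled shcontrol_B 2 and 3 were both higher than shcontrol_B 1, and in all 10 of the genes below both were lower. Over all probe sets, shcontrol_B 2 and 3 were both above shcontrol_B 1 in 36.8% and both below it in 38.8%. Among the probe sets without overlap these shares were 62.0% for those higher in shMsl1_A and 58.4% for those lower. The part of such a difference between control arrays in the results here was not tested.

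Lysosomal genes had the highest share of members without overlap among the 31 gene lists. They encode the acid hydrolases and membrane proteins of the organelle that degrades cellular material. Of the 44 measured members, 40 lay above the controls and 4 below, with a median log2 difference of 0.34, where all probe sets had a median of -0.00. In 15 members (34.1%, against 6.38% of all probe sets) all shMsl1_A arrays lay above all shcontrol_A arrays, 16 of 44 had an unadjusted p under 0.05 in the upward direction (against 4.73% of all probe sets), and 0 passed limma after adjustment. The list median was 0.09, 0.37 and 0.47 above the control mean on shMsl1_A 1, 2 and 3. It was 0.28 without both replicate 2 arrays, with 39 members above and 5 below. The lysosomal list also differed between controls given no shRNA against Msl1. Its median was -0.24, 0.05 and 0.23 relative to the shcontrol_B mean on shcontrol_B 1, 2 and 3. The list was written with earlier results of these arrays known, so its direction is not independent evidence.

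Cln3, a lysosomal membrane protein, had signals of 9.45, 9.67 and 9.71 on the shMsl1_A arrays and 8.83, 9.09 and 8.99 on the shcontrol_A arrays. The groups did not overlap, and shMsl1_A 1 lay 0.48 above the control mean where the mean of shMsl1_A 2 and 3 lay 0.72 above it. The log2 difference was 0.64 ± 0.11 (SE), and 0.67 without both replicate 2 arrays. The next members, like Cln3, were named for having the smallest p of the list, a choice that favours groups standing apart. Psap, the precursor of the saposins, had signals of 11.36, 11.64 and 11.77, against 11.14, 11.03 and 11.02 on the shcontrol_A arrays. Arsa, arylsulfatase A, had signals of 6.58, 7.18 and 7.03, against 6.28, 6.32 and 6.21. Gm2a, the GM2 ganglioside activator, had signals of 9.89, 9.84 and 10.09, against 9.51, 9.63 and 9.55. In all 4 genes the groups did not overlap and shMsl1_A 1 stood clear of the controls. The X-linked Atp6ap1, an accessory subunit of the proton pump that acidifies lysosomes, also stood apart, at 10.38, 10.76 and 10.88 against 10.01, 10.01 and 10.04, a log2 difference of 0.65 ± 0.14. Atp6ap1 was named for its small p among the X-linked genes. On shcontrol_B 1, 2 and 3, given no shRNA against Msl1, its signals were 9.84, 10.52 and 10.57.

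Many lysosomal promoters hold the hexamer CACGTG, which the transcription factor TFEB is known to bind within a longer motif. In the RefSeq windows (GRCm38.p6) from 250 bases before to 50 bases after the gene start, CACGTG, which reads the same on both strands, was found for 12 of 38 lysosomal genes with a window (31.6%), against 8.09% of 27025 genes. A gene was counted when any of its windows held the motif. The match describes the sequence only. Of the genes named above, Psap and Gm2a had 0 matches and Arsa had 1. Cln3, the list member with the smallest p, had 0 in a window at chr7:126585768-126586067. Another Cln3 window, on the minus strand at chr7:126583187-126583486, is shown with its 2 matches in capitals.
Cln3 promoter window: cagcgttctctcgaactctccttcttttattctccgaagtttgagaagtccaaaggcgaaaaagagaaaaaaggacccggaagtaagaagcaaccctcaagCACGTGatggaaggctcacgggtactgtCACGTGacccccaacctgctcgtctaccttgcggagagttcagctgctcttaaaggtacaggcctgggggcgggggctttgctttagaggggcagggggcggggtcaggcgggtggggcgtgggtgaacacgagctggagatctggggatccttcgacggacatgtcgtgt

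Genes listed as replication-dependent core histones, a class mostly transcribed in S phase, lay below the controls in all 21 measured members. Their median log2 difference was -0.66, and members ranged from -2.55 (H2bc1) to -0.09. S phase was not measured here, and whether each member is tied to it was not tested. The list median was -0.02, -1.17 and -0.78 relative to the control mean on shMsl1_A 1, 2 and 3, so the difference came from the last 2 arrays. Of the members, 3 (14.3%, against 5.78% of all probe sets) showed no overlap. H2ac21 had signals of 9.85, 8.96 and 8.66 on the shMsl1_A arrays and 10.44, 9.89 and 10.16 on the shcontrol_A arrays. H2bc18 had signals of 9.99, 9.01 and 9.25, against 10.08, 10.66 and 10.08 on the shcontrol_A arrays. H2ac1 had signals of 12.11, 9.19 and 9.88, against 12.02, 12.41 and 12.01, and here shMsl1_A 1 lay among the controls. Histone genes are near-identical copies, so probes may read several of them. Without both replicate 2 arrays all 21 were still below, with a median of -0.33, and without shMsl1_A 1 the median was -1.02. Among the second experiment's controls, the histone list median was 0.36, -0.08 and -0.26 relative to their mean on shcontrol_B 1, 2 and 3.

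CCAAT, or its reverse complement ATTGG, was found in the promoter windows of 14 of 19 of these histone genes (73.7%), against 41.1% of all genes. The window of H2ac21, the histone gene with the smallest p, lies on the plus strand at chr3:96219635-96219934 and holds 3 matches, in capitals.
H2ac21 promoter window: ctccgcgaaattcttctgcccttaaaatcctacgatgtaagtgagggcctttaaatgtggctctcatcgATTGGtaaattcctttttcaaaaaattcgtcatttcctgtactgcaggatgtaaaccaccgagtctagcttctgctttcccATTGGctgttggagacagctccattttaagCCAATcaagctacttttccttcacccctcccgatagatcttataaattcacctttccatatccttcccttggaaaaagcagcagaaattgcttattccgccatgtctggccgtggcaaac

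The pluripotency network, the factors that keep mESCs undifferentiated, lay below the controls in 30 of 32 measured members, with a median log2 difference of -0.33. In 7 members (21.9%, against 5.78%) the groups did not overlap, and 0 passed limma. Sox2 had signals of 11.40, 10.86 and 11.03 on the shMsl1_A arrays and 11.68, 11.49 and 11.58 on the shcontrol_A arrays, a log2 difference of -0.49 ± 0.15. Tet1, a 5-methylcytosine dioxygenase, had signals of 10.92, 10.74 and 10.77, against 11.16, 11.05 and 11.24 on the shcontrol_A arrays, and its relative Tet2 had signals of 10.05, 9.81 and 9.91, against 10.18, 10.30 and 10.56. These genes did not overlap between the groups. Pou5f1, which encodes Oct4, had signals of 9.05, 8.73 and 8.85, against 9.03, 8.86 and 9.04, and Nanog had signals of 12.13, 11.56 and 11.73, against 11.90, 12.18 and 12.02, so both overlapped. Sox2, Pou5f1, Nanog and Zfp42 were above a signal of 8 on all 6 arrays, as is usual for mESCs. The list median was -0.00, -0.54 and -0.42 relative to the control mean on shMsl1_A 1, 2 and 3, and -0.22 in the difference without both replicate 2 arrays and -0.20 without shMsl1_A 2 alone. On shcontrol_B 1, 2 and 3 the pluripotency list median was 0.18, -0.10 and -0.01 relative to the shcontrol_B mean.

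Of the primed epiblast markers 10 of 11 lay below the controls, at a median of -0.56. The list median was 0.13, -1.12 and -0.81 relative to the control mean on shMsl1_A 1, 2 and 3, so the list lay above the controls on the first of these. Without shMsl1_A 1 the median difference was -0.90, and without shMsl1_A 2 it was -0.37. On shcontrol_B 1, 2 and 3 the list median was 0.60, -0.10 and -0.52 relative to the shcontrol_B mean. Dnmt3a, a DNA methyltransferase, had signals of 8.59, 7.54 and 7.55, against 8.79, 8.47 and 8.72 on the shcontrol_A arrays, and overlapped with them through shMsl1_A 1. Cldn6, a tight junction protein, was the member above the controls, at 10.60, 11.16 and 11.20 against 10.19, 10.47 and 10.21, without overlap. Neural progenitor genes lay below the controls in 20 of 27 members, with a median of -0.13, or -0.22 without shMsl1_A 1. Sox1, a neural transcription factor, had signals of 6.42, 5.39 and 5.42, against 6.64, 6.56 and 6.50 on the shcontrol_A arrays. Of the genes with RT-qPCR primers in the study, 9 were measured, of which 2 lay above and 7 below, with the widest difference for Pax6 (-0.81 ± 0.32). Pax6 had signals of 7.92, 6.75 and 6.84, against 7.95, 7.87 and 8.11 on the shcontrol_A arrays, so shMsl1_A 1 lay among the controls. By RT-qPCR the study reports Pax6, Hes5 and Nestin (Nes) raised in mESCs after Msl1 knockdown. The array differences as titled were below 0 for these genes, at -0.19 for Hes5 and -0.08 for Nes. That of Nes was 0.16 without both replicate 2 arrays.

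Genes of epithelial, contractile and matrix character lay above the controls. The median was 0.50 for genes of trophectoderm and simple epithelium, of which 12 of 14 lay above and 3 (21.4%, against 6.38%) showed no overlap. It was 0.76 without shMsl1_A 1, on which the list lay 0.06 above the control mean. Dlx3, a homeobox factor of the placenta, stood apart on each array, at 7.26, 7.09 and 7.32 against 6.78, 6.80 and 6.88 on the shcontrol_A arrays (0.40 ± 0.09). Krt19, a keratin, had signals of 8.29, 9.70 and 9.78, against 8.18, 8.03 and 8.04 on the shcontrol_A arrays, with shMsl1_A 1 close to the controls. For contractile genes the median was 0.60, and 19 of 20 lay above. Relative to the control mean the contractile list stood at 0.00, 0.98 and 0.91 on shMsl1_A 1, 2 and 3, and its median difference was 0.95 without shMsl1_A 1 and 0.35 without both replicate 2 arrays. Both lists were thus carried by shMsl1_A 2 and 3. Relative to the shcontrol_B mean, the trophectoderm and epithelium list stood at -0.26, 0.10 and 0.22 on shcontrol_B 1, 2 and 3. The contractile list stood there at -0.30, 0.23 and 0.08. Tagln2, an actin-binding protein, had signals of 10.05, 10.43 and 10.38, against 9.77, 9.72 and 9.70 on the shcontrol_A arrays, with no overlap. Of the basement membrane genes 17 of 18 lay above, at a median of 0.43, among them the laminin chain Lamb2 (0.79 ± 0.25) and nidogen, Nid1 (0.96 ± 0.35). This list stood at -0.02, 0.68 and 0.67 on shMsl1_A 1, 2 and 3, with a median difference of 0.67 without shMsl1_A 1 and 0.16 without both replicate 2 arrays. Relative to the shcontrol_B mean, the basement membrane list stood at -0.27, -0.05 and 0.28 on shcontrol_B 1, 2 and 3.

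Feeder cells had been part of the culture, so markers of feeder fibroblasts are given beside these groups. Of 38 measured markers, 34 lay above the controls and 4 below, with a median log2 difference of 0.40, and their mean log2 signal was 7.15, 8.04 and 7.81 on the shMsl1_A arrays and 7.34, 7.05 and 7.24 on the shcontrol_A arrays. The list median was -0.02, 0.75 and 0.54 relative to the control mean on shMsl1_A 1, 2 and 3. The markers were thus high on shMsl1_A 2 and 3 only, and not on shMsl1_A 1. Pdgfrb, a growth factor receptor of mesenchymal cells, had signals of 7.18, 8.82 and 8.22, against 7.03, 6.90 and 6.85 on the shcontrol_A arrays, and Fap, another fibroblast gene, had 4.71, 4.33 and 4.62, against 4.80, 5.08 and 4.83. Without both replicate 2 arrays, 24 markers were above and 14 below, with a median of 0.19, which was 0.22 without shMsl1_A 2 alone and 0.61 without shMsl1_A 1. Relative to the shcontrol_B mean, the list median was -0.38, 0.21 and 0.11 on shcontrol_B 1, 2 and 3. The part of feeder cells in the results here was not tested, and in such bulk samples more cells of a type and more RNA per cell cannot be told apart.

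Genes of protein synthesis and growth lay below the controls on shMsl1_A 2 and 3. The 71 proteins of the mitochondrial ribosome had a median of -0.25, with 65 below, and the 67 of the cytosolic ribosome a median of -0.17, with 59 below and 13 (19.4%, against 5.78%) without overlap. On shMsl1_A 1, 2 and 3 the list medians relative to the control mean were 0.03, -0.41 and -0.37 for the mitochondrial ribosome and 0.01, -0.27 and -0.22 for the cytosolic ribosome. Without shMsl1_A 1 the median differences were -0.40 and -0.26, and without shMsl1_A 2 that of the mitochondrial ribosome was -0.17. The lists as a whole thus did not lie below the controls on shMsl1_A 1, although single members did. Both lists also differed between controls given no shRNA against Msl1. Relative to the shcontrol_B mean, the mitochondrial ribosome median was 0.23, -0.02 and -0.19 on shcontrol_B 1, 2 and 3. That of the cytosolic ribosome was 0.10, -0.04 and -0.08. Mrpl32, of the large mitochondrial subunit, had signals of 8.18, 7.65 and 7.87 on the shMsl1_A arrays and 8.52, 8.54 and 8.62 on the shcontrol_A arrays (-0.66 ± 0.15). Rps12, of the small cytosolic subunit, had signals of 11.68, 11.39 and 11.38, against 11.83, 11.91 and 11.85 (-0.38 ± 0.11). Both genes showed no overlap. The DNA replication genes lay below the controls in all 50 members, with a median of -0.23, and the mitosis genes in 33 of 36, with a median of -0.15. The DNA replication list stood at 0.01, -0.36 and -0.29 on shMsl1_A 1, 2 and 3, and its median was -0.35 without shMsl1_A 1. On shcontrol_B 1, 2 and 3 this list stood at 0.17, -0.03 and -0.15 relative to the shcontrol_B mean. Gins1, a subunit of the replicative helicase, had a log2 difference of -0.53 ± 0.15, and G2e3, a ubiquitin ligase of the G2 phase, had signals of 9.20, 9.05 and 9.12, against 9.64, 9.49 and 9.66 on the shcontrol_A arrays (-0.48 ± 0.09). In G2e3, shMsl1_A 1, 2 and 3 lay at like levels and clear of all controls. It was named for the smallest p of the mitosis genes, a choice that favours such separation.

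Targets of p53, interferon response genes and sterol genes had medians of 0.16 to 0.21. Of the p53 target genes 19 of 28 lay above, at a median of 0.20, led by the cell cycle inhibitor Cdkn1a, at 10.70, 11.34 and 11.26 against 10.40, 10.45 and 10.37 on the shcontrol_A arrays. This list stood at -0.00, 0.42 and 0.45 on shMsl1_A 1, 2 and 3, with a median of 0.44 without shMsl1_A 1 and 0.094 without both replicate 2 arrays. Interferon response genes lay above in 20 of 22 members, with a median of 0.21, which was 0.31 without both replicate 2 arrays and 0.33 without shMsl1_A 1. The interferon list stood at 0.06, 0.41 and 0.36 on shMsl1_A 1, 2 and 3, so mainly shMsl1_A 2 and 3 were high. Relative to the shcontrol_B mean, the interferon list stood at -0.14, -0.02 and 0.16 on shcontrol_B 1, 2 and 3. The class I antigen H2-K1 had signals of 9.24, 9.31 and 9.55, against 8.63, 9.04 and 8.34 on the shcontrol_A arrays. Cholesterol genes lay above in 15 of 19 members, with a median of 0.16, or 0.10 without shMsl1_A 3, and with 0.12, 0.17 and 0.20 on shMsl1_A 1, 2 and 3, so this small difference was shared by the 3 arrays.

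Because the MSL complex acts on the X chromosome in Drosophila, X-linked genes were set beside the autosomes. The 899 measured X-linked genes had a median of -0.03, with 390 above and 509 below, and the 21065 named autosomal genes had a median of -0.02. The share of X-linked genes without overlap was 4.45% above and 7.34% below, against 6.36% and 6.09% of the autosomal genes. The X-linked kinase gene Wnk3 had signals of 8.33, 8.13 and 8.08, against 8.69, 8.70 and 8.84 on the shcontrol_A arrays, a log2 difference of -0.57 ± 0.10. The groups did not overlap, and the adjusted p was 0.622 by limma. Wnk3 was named for the smallest p of the X-linked genes, a choice that favours groups standing apart. On shcontrol_B 1, 2 and 3, given no shRNA against Msl1, its signals were 8.74, 8.32 and 8.20. The 36 Hox genes had a median of 0.02, which turned to -0.04 when the arrays were centred on their medians.

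Lysine acetyltransferases, the enzyme class of Mof, lay below the controls in 11 of 15 members, with a median of -0.09. Their list median was -0.13 relative to the control mean on each of shMsl1_A 1, 2 and 3, an even though small difference, and 3 members (20%, against 5.78%) showed no overlap. Kat2b, the acetyltransferase PCAF, had signals of 8.95, 8.37 and 8.38 on the shMsl1_A arrays and 9.09, 9.18 and 9.07 on the shcontrol_A arrays. Ncoa1, a nuclear receptor coactivator, had signals of 7.77, 7.65 and 7.53, against 7.87, 7.87 and 8.12 on the shcontrol_A arrays. In Kat2b the low values were those of shMsl1_A 2 and 3. Polycomb subunits, which repress developmental genes, lay below in 19 of 27 members, with Phf1, an accessory subunit, above at 6.64, 7.58 and 7.12 against 6.35, 6.30 and 6.44.

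Lineage and metabolic lists with less separation were also read. Mesoderm and primitive streak genes lay above in 12 of 18 members, led by the homeobox gene Mixl1, at 6.39, 8.14 and 7.97 against 6.31, 6.07 and 6.31 on the shcontrol_A arrays, but without both replicate 2 arrays 9 lay above and 9 below. Endoderm genes lay above in 14 of 19 members and two-cell-like genes, active in a rare mESC state, below in 10 of 13, with a median of -0.16 that was -0.053 without both replicate 2 arrays and -0.29 without shMsl1_A 1. Imprinted genes lay above in 20 of 26 members, among them Igf2r, the receptor that clears Igf2 and sorts lysosomal enzymes, at 9.12, 9.75 and 9.69 against 8.98, 8.93 and 8.97 on the shcontrol_A arrays. Glycolysis enzymes lay below in 15 of 18 members, redox enzymes and NRF2 targets in 17 of 22 and proteasome subunits in 33 of 47. The ATF4 list, with genes of the unfolded protein response, was split evenly, 14 above and 14 below. No member of these lists passed limma.

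**Figure D4:**
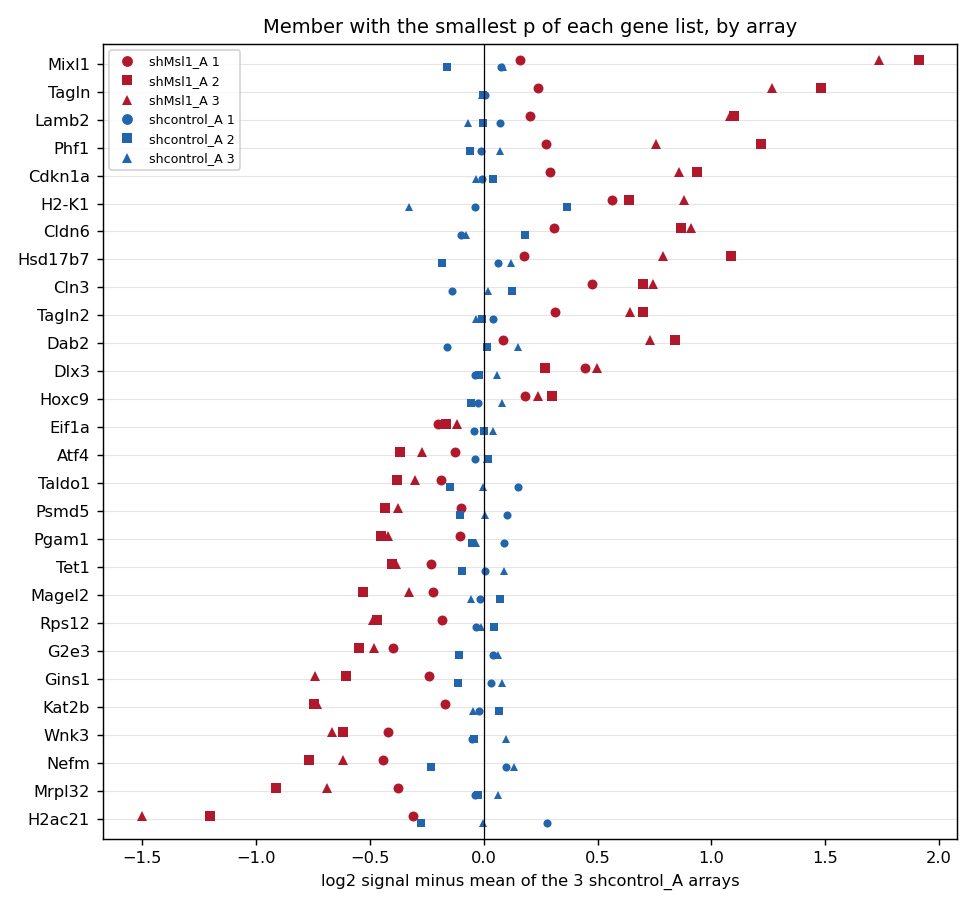
Log2 signal of the member with the smallest p of each gene list, as the distance from the mean of the 3 shcontrol_A arrays (horizontal axis), with the 3 shMsl1_A arrays in red and the 3 shcontrol_A arrays in blue. In Cln3, Dlx3, G2e3 and Wnk3 all 3 red symbols stand clear of the blue ones, whereas in Mixl1 the red circle (shMsl1_A 1) stays near them, at 6.39 against 6.07 to 6.31. Choosing the smallest p favours groups that stand apart.

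**Figure D5:**
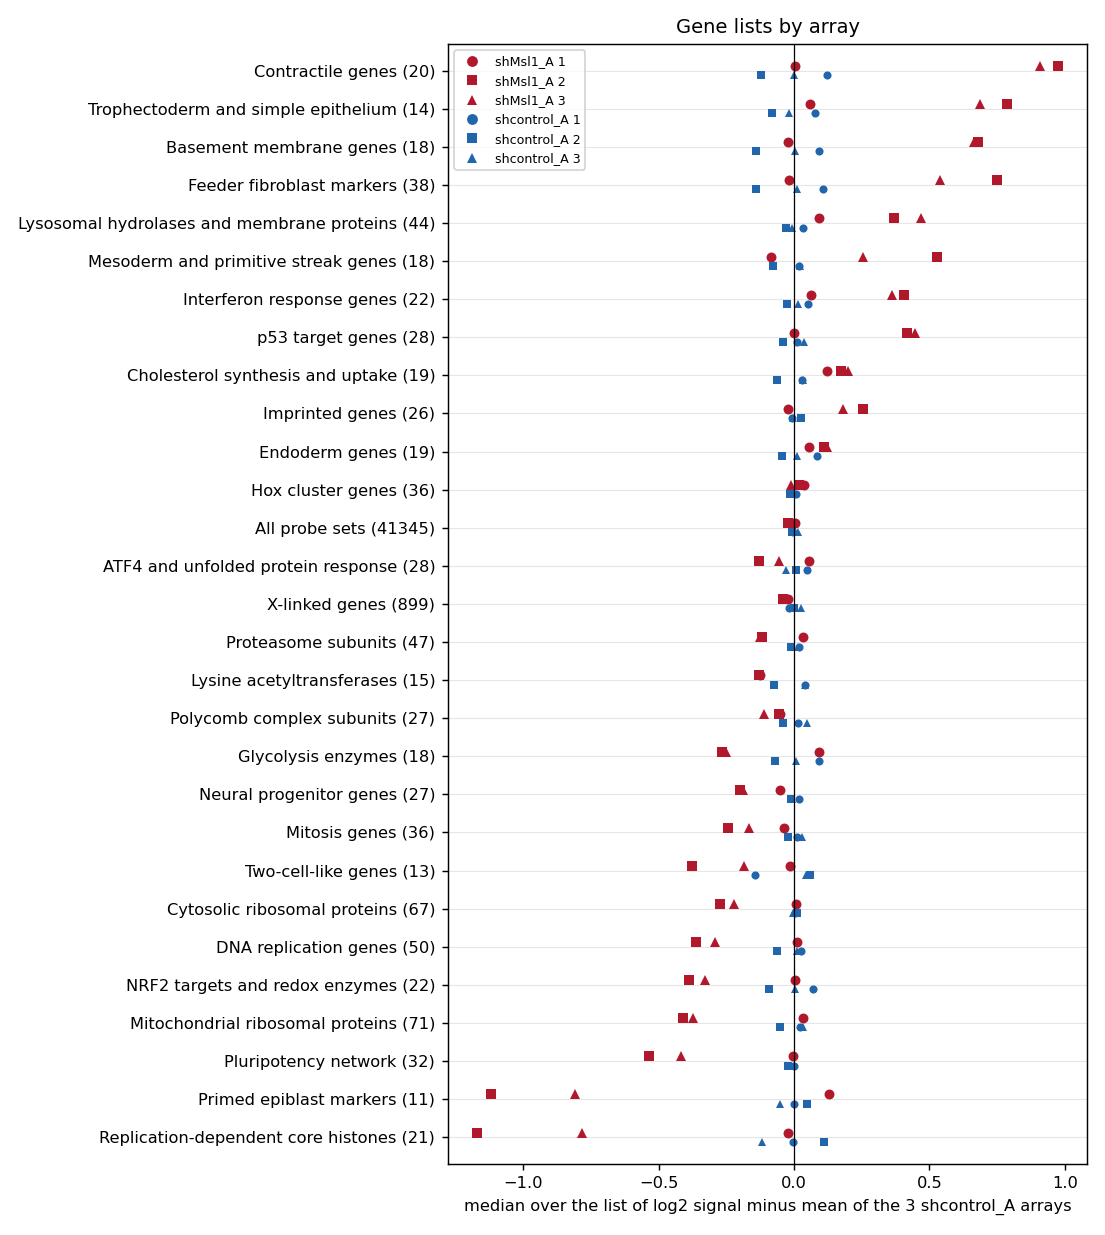
Median over each gene list (number of genes in brackets) of the log2 signal minus the mean of the 3 shcontrol_A arrays, for the 3 shMsl1_A arrays in red and the 3 shcontrol_A arrays in blue. For the core histones shMsl1_A 1 lies near 0 at -0.02 and shMsl1_A 2 and 3 lie away from it at -1.17 and -0.78, whereas the acetyltransferases lie at -0.13 on all 3.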

How the data were processed

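Total RNA was labelled and hybridised to Affymetrix GeneChip Mouse Gene 2.0 ST arrays. The deposited log2 values were made by the authors with robust multi-array average (RMA) in Affymetrix Expression Console 1.1, per the labels, and all 41345 probe sets were used as deposited. The platform annotation gave 1 gene symbol for 23521 probe sets, several for 1820 and none for 16004, and 23328 of the first were matched to RefSeq (GRCm38.p6) by gene ID. Where several probe sets read the same gene, the brightest is given. Precision is limited by having 3 arrays per group.

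The groups were compared by limma 3.58.1 under R 4.3.3 (linear fit and empirical Bayes moderation, two-sided, no covariate, Benjamini-Hochberg adjustment over all probe sets, threshold 0.05). The methods of the study select genes by FCROS without adjustment. It was written anew here with all 9 pairs, a trim of 0.25 and limits of 0.025 and 0.975. The pipeline was tested on simulated data. Alternatives were other scalings, filters, moderation, a fit of all 12 arrays, a replicate block, and leaving out each array or both replicate 2 arrays.

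The arrays compared and the 31 gene lists were chosen with earlier results of these data known. Lists are described by counts and medians, with no set test. Named genes are Msl1 and the MSL and NSL members, the 10 largest differences per direction without overlap and with a mean signal of at least 6, the largest also found without both replicate 2 arrays, the members with the smallest p (up to 4) from each list, Pou5f1, Sox2, Nanog and the RT-qPCR genes. Small RNAs and provisional gene models were left out of the largest differences. In every list, naming members by the smallest p favours genes whose groups stand apart.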

Additional observations from a re-analysis of the deposited data

How the results depend on the processing

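FCROS called 1247 probe sets where limma called 0, and leaving out single arrays gave limma counts between 0 and 6771. The fits without single arrays put the log2 difference of Msl1 between -0.82 and 0.39, of Msl2 between -0.098 and 0.021, of Ogt between -0.00041 and 0.127, of Nes between -0.26 and 0.058 and of Actb between -0.025 and 0.035. In the same fits the medians lay between -0.074 and 0.176 for the MSL complex, -0.11 and -0.022 for the NSL complex, -0.22 and -0.10 for neural progenitor genes, 0.057 and 0.20 for endoderm genes, 0.105 and 0.44 for p53 target genes, -0.135 and 0.048 for the unfolded protein response and 0.102 and 0.17 for cholesterol genes. Same-numbered deviations from the group means correlated at 0.045, -0.23 and 0.21. Such deviations sum to 0 within each group, so these values do not settle whether same-numbered arrays were paired. The limma fit with the replicate block called 0, with a smallest adjusted p of 0.657. Without both replicate 2 arrays the sign turned for Wdr5 (0.016), Dvl3 (-0.17), Cdk6 (-0.0072), Nes (0.16) and Actb (-0.022), and the medians became -0.0030 for the NSL complex, -0.057 for the RT-qPCR genes, -0.0094 for mesoderm genes, 0.058 for the unfolded protein response, -0.11 for the cytosolic ribosome and -0.046 for the proteasome. Further medians that moved by over 1.5 times stand beside the lists above. Without shMsl1_A 1 the median was 0.43 for mesoderm genes, -0.12 for the proteasome and -0.27 for glycolysis, which was -0.024 without shMsl1_A 3 and -0.045 without shMsl1_A 2. Redox genes had -0.16 without shMsl1_A 2 or 3. Without shMsl1_A 2 the median was 0.030 for mesoderm genes and -0.40 for core histones, without shMsl1_A 2 and 3 in turn it was 0.127 and 0.105 for p53 targets, without shcontrol_A 2 it was 0.12 for mesoderm genes, and without shcontrol_A 3 it was -0.084 for two-cell-like genes. With arrays centred on the median, Ogt (-0.0081) and Actb (-0.058) turned, and medians moved for endoderm (0.072), cholesterol (0.107), Polycomb (-0.15), acetyltransferase (-0.15), Hox (-0.041) and X-linked genes (-0.084). Quantile normalization gave endoderm 0.073, cholesterol 0.106, Hox -0.012 and X-linked genes -0.044. With dim probe sets left out, medians were 0.433 for endoderm, -0.55 for two-cell-like, 0.357 for interferon and -0.114 for Hox genes. The cause of these shifts was not tested.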
